A study of Mus musculus with 22 samples.

Results

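A set of 10 genes of fatty acid synthesis and binding was followed through mouse head and neck tumours that carried or lacked *Keap1* and had or had not been given a tobacco carcinogen. The 10 genes were *Srebf1*, *Acly*, *Acaca*, *Fasn*, *Elovl6*, *Scd1*, *Scd2*, *Fabp4*, *Fabp5* and *Cd36*. They were chosen by symbol, matched to Ensembl gene IDs, and make up 10 of the 56748 genes in each deposited table. All 10 passed the filter on low counts, which 19202 genes passed. RNA-seq had been made from 22 primary tumours labelled squamous carcinoma. Every tumour carried Krt5CreER-T2/+, Trp53fl/fl and 2 copies of a Rosa26LSL-PIK3CA(H1047R) allele, so that deletion of the tumour suppressor Trp53 and expression of an activated PI3-kinase subunit were shared by all groups, controls included. Tumours were started by injecting 4-hydroxytamoxifen, which switches on the Cre recombinase, into the buccal mucosa of the mouth. The 4 groups were 6 Keap1-wildtype untreated tumours, 6 Keap1-wildtype tumours given benzo[a]pyrene (BAP), 5 Keap1-deleted (Keap1fl/fl) untreated tumours and 5 Keap1-deleted BAP tumours. Untreated means tamoxifen without BAP, a polycyclic hydrocarbon of tobacco smoke. The Cre is driven by the promoter of Krt5, a keratin of basal epithelial cells, so recombination is directed to those cells and not to the other cells of a tumour. The labels give neither age nor sex, nor whether any mouse gave more than 1 tumour, so p-values measure the spread between these tumours.

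KEAP1 is the adaptor that marks the transcription factor NRF2 for degradation, and its loss raises NRF2 and its oxidative stress genes. Fatty acids are built in the cytosol from citrate: ATP citrate lyase (Acly) makes acetyl-CoA, acetyl-CoA carboxylase (Acaca) makes malonyl-CoA, and fatty acid synthase (Fasn) joins these units into palmitate. Elovl6 lengthens palmitate, and the stearoyl-CoA desaturases Scd1 and Scd2 put in a double bond to give monounsaturated fatty acids. The transcription factor made from Srebf1 (SREBP-1) activates these enzymes. Fabp4 and Fabp5 are small proteins that carry fatty acids inside cells, Fabp4 best known from adipocytes and Fabp5 from the epidermis, and Cd36 is a surface receptor that takes fatty acids up. In skin, lipid synthesis is high in sebaceous glands and in keratinocytes that form the barrier.

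Promoter sequences of the RefSeq table (GRCm38.p6, 250 bases before to 50 after the start) were matched by symbol for 6 of the 10 genes: *Srebf1*, *Fasn*, *Acaca*, *Acly*, *Elovl6* and *Cd36*, with 8 windows in all. The 3 shown belong to enzymes of synthesis (*Fasn*, *Acly*), between which *Acaca* acts, and to the uptake receptor whose groups separated in untreated tumours (*Cd36*). All 3 were among the windows that hold the motif marked here. All 3 genes lie on the minus strand, at chr11:120824498-120824797 (*Fasn*), chr11:100527951-100528250 (*Acly*) and chr5:17835847-17836146 (*Cd36*). Capitals mark CCAAT boxes, the letters CCAAT or their reverse complement, a motif added after the others had been searched.
Fasn: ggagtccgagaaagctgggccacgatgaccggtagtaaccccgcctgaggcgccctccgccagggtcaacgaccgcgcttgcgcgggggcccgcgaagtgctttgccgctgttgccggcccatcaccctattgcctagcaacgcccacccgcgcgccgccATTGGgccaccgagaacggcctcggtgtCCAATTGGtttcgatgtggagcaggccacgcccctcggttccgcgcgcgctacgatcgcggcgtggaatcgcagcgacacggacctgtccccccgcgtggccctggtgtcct
Acly: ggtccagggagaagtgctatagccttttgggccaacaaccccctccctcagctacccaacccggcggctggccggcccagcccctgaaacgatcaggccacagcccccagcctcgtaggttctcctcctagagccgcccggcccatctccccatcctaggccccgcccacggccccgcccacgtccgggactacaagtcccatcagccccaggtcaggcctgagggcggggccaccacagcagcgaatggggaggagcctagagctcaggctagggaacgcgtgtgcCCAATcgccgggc
Cd36: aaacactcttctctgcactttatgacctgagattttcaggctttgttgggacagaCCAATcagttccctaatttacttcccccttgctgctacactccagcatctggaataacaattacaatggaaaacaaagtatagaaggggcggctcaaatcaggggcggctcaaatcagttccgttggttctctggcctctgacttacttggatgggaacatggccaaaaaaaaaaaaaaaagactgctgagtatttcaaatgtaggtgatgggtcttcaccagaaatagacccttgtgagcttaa
The *Fasn* window held 3 such matches, 2 of them overlapping each other, and the *Acly* and *Cd36* windows held 1 each. Of all 8 windows 5 held a match: a pair of the 3 *Srebf1* windows did, and the other *Srebf1* window, *Acaca* and *Elovl6* did not. At least 1 match on either strand stood in 37.4% of the 32851 promoters of the table. The SREBP element TCACNCCAC, the E-box CACGTG and the antioxidant response element core TGACNNNGC were searched on both strands and matched none of the 8 windows; they stood in 1.24%, 7.15% and 12.4% of all promoters. A match describes letters in a window and is not a binding site.

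Paralogues can share reads, so the coding sequences of the GENCODE M21 principal transcripts were aligned. Over 396 aligned bases *Fabp4* and *Fabp5* were 61.9% identical, with no identical run over 12 bases. Their most similar 60 bases, on chromosome 3, agree at 44 positions; capitals mark the 16 that differ.
Fabp4: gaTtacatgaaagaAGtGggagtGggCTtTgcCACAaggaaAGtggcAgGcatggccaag
Fabp5: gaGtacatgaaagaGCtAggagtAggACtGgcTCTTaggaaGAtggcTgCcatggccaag
*Scd1* and *Scd2*, neighbours on chromosome 19, were 90.3% identical over 1065 aligned bases, and their longest identical run was 147 bases, beside a read length of 150 in the labels. These 60 bases of the run are the same in both, shown for the place in the coding sequences where reads of the genes are hardest to tell apart.
Scd1: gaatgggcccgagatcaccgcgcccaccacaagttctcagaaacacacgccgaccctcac
Scd2: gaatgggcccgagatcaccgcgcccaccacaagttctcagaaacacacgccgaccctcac
Counts of *Scd1* and *Scd2* may therefore be less certain than the others, since the counting step could divide shared reads. The parts of the transcripts outside the coding sequence were not aligned, and the number of shared reads was not measured. *Srebf1* overlaps *Rai1* on the opposite strand, whose median count was 1033 beside 4563 for *Srebf1*, and whether the counting used strand is not given in the sources used here.

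Total counts per tumour ran from 29235010 to 39862777. Levels are given as CPM, counts scaled to a library of 1000000, after TMM scaling, which corrects library size for composition. *Keap1* itself ran from 45.7 to 78.9 CPM in the 12 wild-type tumours and from 9.44 to 65.5 CPM in the 10 deleted tumours. The tumour labelled Keap1-deleted BAP 2, at 65.5 CPM, lay within the wild-type range. The NRF2 target *Nqo1* was 143 to 461 CPM in Keap1-deleted untreated tumours and 19.4 to 79.3 CPM in Keap1-wildtype untreated tumours. In BAP tumours its groups overlapped: Keap1-deleted tumours 1 to 5 had 403, 177, 19.4, 54.2 and 134 CPM and Keap1-wildtype tumours 30.6 to 85.7 CPM, so that deleted tumours 3 and 4 did not stand above the wild type. The keratinocyte marker *Krt14* was 13.0 to 1158 CPM in Keap1-deleted BAP tumours, against 20021 to 50501 CPM in Keap1-wildtype BAP tumours, despite the shared label of squamous carcinoma. The summed CPM of 12 basal keratinocyte markers was 322 to 1832 in Keap1-deleted BAP tumours and 27062 to 63300 in Keap1-wildtype BAP tumours. It was 1546 in Keap1-wildtype untreated tumour 6, against 18959 to 48647 in the other 5 of its group. In bulk RNA, fewer cells of a type and less RNA per cell cannot be told apart, and this applies to every level below.

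**Figure D1:**
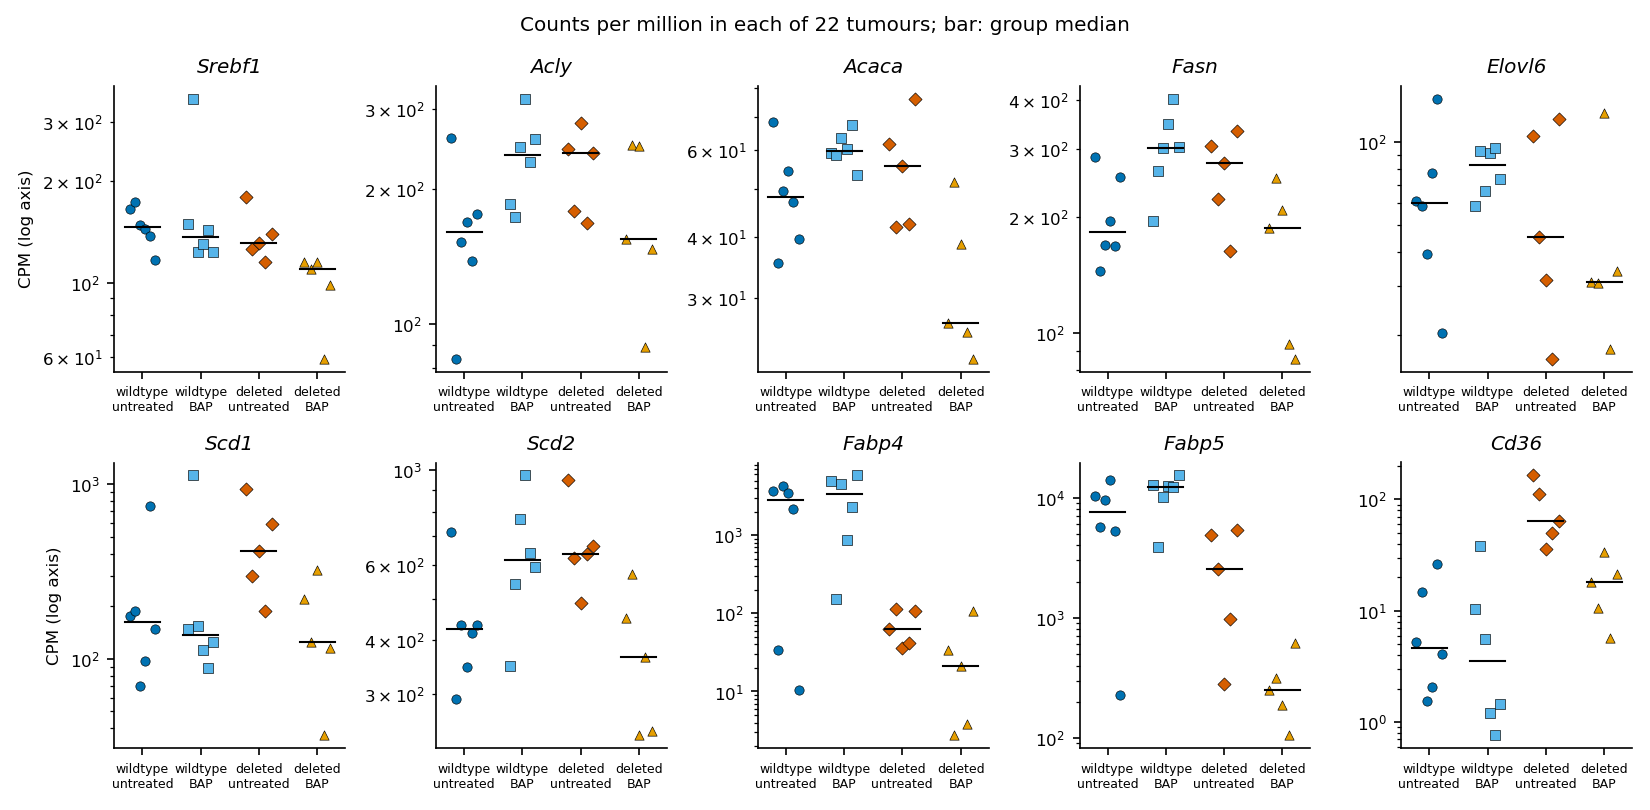
CPM of each of the 10 genes in each of the 22 tumours, on log axes that differ between panels; symbols and colours mark the 4 groups and bars the group medians. Fabp4 spans 2.75 to 5796 CPM, while Acaca spans only 22.6 to 76.0 CPM.

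The genes differed widely in how much they varied. Between the lowest and the highest of the 22 tumours *Fabp4* differed 2106-fold, *Cd36* 215-fold, *Fabp5* 146-fold and *Scd1* 30.8-fold. The other 6 genes differed between 3.36-fold (*Acaca*) and 8.74-fold (*Elovl6*). On a per-length scale (TPM, transcripts scaled to 1000000 per library, from the deposited lengths), *Fabp5* had the highest median level of the 10 genes in 3 groups, for example 5101 TPM in Keap1-wildtype untreated tumours, followed there by *Fabp4* at 1416, *Scd2* at 185 and *Scd1* at 86.1 TPM. *Acly* at 66.7 and *Srebf1* at 63.5 TPM came next, and their ranges overlapped. *Fasn* was at 39.6, *Elovl6* at 21.7, *Acaca* at 6.84 and *Cd36* at 3.35 TPM. In Keap1-deleted BAP tumours *Scd2* came first with a median of 246 TPM, *Fabp5* followed at 207 TPM with an overlapping range, and *Fabp4* stood seventh at 17.8 TPM. The deposited length of *Fabp4*, 4489 bases, and of *Fabp5*, 3567 bases, exceeds that of their principal transcripts, 896 and 987 bases. With the principal transcripts' lengths, a choice made after seeing the data, *Fabp5* was first in all 4 groups, at 748 TPM in Keap1-deleted BAP tumours beside 247 TPM for *Scd2*.

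*Srebf1*, the regulator, was lower in Keap1-deleted than in Keap1-wildtype BAP tumours. Its lowest, median and highest levels were 117, 146 and 173 CPM in Keap1-wildtype untreated tumours and 123, 137 and 351 CPM in Keap1-wildtype BAP tumours. Keap1-deleted untreated tumours 1 to 5 had 179, 126, 131, 115 and 139 CPM. Keap1-deleted BAP tumours 1 to 5 had 115, 110, 115, 59.4 and 98.3 CPM, each below every Keap1-wildtype BAP tumour. *Srebf1* fell in Keap1-deleted against Keap1-wildtype BAP tumours, 1.71-fold (log2 -0.77, SE 0.25, adjusted p = 0.0186). The value of 351 CPM came from Keap1-wildtype BAP tumour 2, and without that tumour the log2 fold change was -0.43 (adjusted p = 0.0584). Without Keap1-deleted BAP tumour 4, the lowest, it was -0.63 (adjusted p = 0.058).

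*Acly*, the source of cytosolic acetyl-CoA, passed the threshold in no comparison. Its lowest, median and highest levels were 83.9, 160 and 259 CPM in Keap1-wildtype untreated and 173, 238 and 316 CPM in Keap1-wildtype BAP tumours. The Keap1-deleted untreated tumours held 245, 178, 280, 168 and 240 CPM and Keap1-deleted BAP tumours 155, 250, 249, 89.1 and 147 CPM. The groups overlapped in every comparison. The log2 difference between Keap1-deleted and Keap1-wildtype BAP tumours was -0.39 (95% interval -0.93 to 0.14, adjusted p = 0.258).

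*Acaca*, which makes malonyl-CoA, had a lowest, median and highest level of 35.4, 48.1 and 68.3 CPM in Keap1-wildtype untreated tumours and of 53.4, 59.6 and 67.2 CPM in Keap1-wildtype BAP tumours. Levels in Keap1-deleted untreated tumours were 61.6, 41.9, 55.5, 42.4 and 76.0 CPM. Keap1-deleted BAP tumours had 26.7, 51.6, 38.6, 25.6 and 22.6 CPM, all below the Keap1-wildtype BAP tumours. *Acaca* fell 1.82-fold in Keap1-deleted against Keap1-wildtype BAP tumours (log2 -0.87, SE 0.22, adjusted p = 0.00393). This effect of the deletion differed between the BAP and the untreated arm, with an interaction of -1.05 on the log2 scale (SE 0.30, adjusted p = 0.0429). With single tumours left out the interaction ran from -1.27 to -0.89 and missed the threshold in 15 of 22 fits (adjusted p 0.0206 to 0.0975), while the fall in BAP tumours passed in all 22. The highest of the Keap1-deleted BAP values, 51.6 CPM, was that of tumour 2, whose *Keap1* level lay in the wild-type range. Its *Nqo1*, 177 CPM, stood above the 30.6 to 85.7 CPM of Keap1-wildtype BAP tumours, and its *Fabp4*, 2.75 CPM, was the lowest of all tumours. A link between its *Keap1* and *Acaca* levels was not tested.

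*Fasn*, which makes palmitate, had a lowest, median and highest level of 145, 182 and 285 CPM in Keap1-wildtype untreated tumours and of 195, 302 and 403 CPM in Keap1-wildtype BAP tumours. Keap1-deleted untreated tumours had 305, 222, 276, 163 and 334 CPM and Keap1-deleted BAP tumours 187, 251, 208, 93.7 and 85.7 CPM. Against Keap1-wildtype BAP tumours the Keap1-deleted BAP tumours were 1.83-fold lower (log2 -0.87, SE 0.28, adjusted p = 0.0177), although the groups overlapped. Without Keap1-deleted BAP tumour 4 or 5, the lowest of the group, it was -0.72 (adjusted p = 0.0553) or -0.71 (adjusted p = 0.0524). The interaction was -1.23 (SE 0.39, adjusted p = 0.0573) and did not pass the threshold.

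*Elovl6*, the elongase of palmitate, passed the threshold in no comparison. Its lowest, median and highest levels were 20.4, 59.9 and 143 CPM in Keap1-wildtype untreated and 58.4, 82.5 and 95.1 CPM in Keap1-wildtype BAP tumours. The Keap1-deleted untreated tumours held 105, 45.4, 31.6, 16.4 and 121 CPM. Keap1-deleted BAP tumours had 31.0, 30.8, 127, 17.8 and 34.0 CPM, where tumour 3 stood far above the other 4. The log2 difference between the BAP groups was -0.73 (95% interval -1.77 to 0.31, adjusted p = 0.285), and without Keap1-deleted BAP tumour 3 it was -1.49 (adjusted p = 0.026).

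The desaturases differed in their spread. *Scd1* had a lowest, median and highest level of 69.9, 163 and 749 CPM in Keap1-wildtype untreated tumours and of 88.6, 137 and 1124 CPM in Keap1-wildtype BAP tumours. Levels in Keap1-deleted untreated tumours were 940, 298, 417, 189 and 594 CPM and Keap1-deleted BAP tumours 221, 125, 325, 36.5 and 115 CPM. In both wild-type groups a single tumour stood far above the rest, and *Scd1* passed the threshold in no comparison. Its log2 difference in Keap1-deleted against Keap1-wildtype BAP tumours was -0.83 (95% interval -2.25 to 0.60) and became 0.39 without Keap1-wildtype BAP tumour 2. *Scd2* was less variable, with a lowest, median and highest level of 292, 425 and 717 CPM in Keap1-wildtype untreated and 348, 616 and 971 CPM in Keap1-wildtype BAP tumours. Keap1-deleted untreated tumours had 947, 623, 489, 637 and 666 CPM and Keap1-deleted BAP tumours 452, 571, 240, 366 and 245 CPM. *Scd2* was 1.72-fold lower in Keap1-deleted than in Keap1-wildtype BAP tumours (log2 -0.78, SE 0.28, adjusted p = 0.0337), with overlapping groups. Its interaction was -1.39 (SE 0.40, adjusted p = 0.0418). With single tumours left out, the difference in BAP tumours ran from -0.98 to -0.63 and missed the threshold in 7 of 22 fits (highest adjusted p 0.0905), and the interaction ran from -1.60 to -1.24 and missed it in 14 (highest adjusted p 0.0961). Per length, *Scd2* exceeded *Scd1* in all but 4 of the 22 tumours, 1 in each group.

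High *Scd1* went with markers of sebaceous glands, the oil glands of skin. The 3 genes most like *Scd1* over the 22 tumours were *Far2*, *Acot5* and *Awat1*, each at a Pearson r of 0.93, and *Far2* and *Awat1* are enzymes of wax synthesis and 2 of the 10 sebaceous markers used here. The summed level of those 10 markers was 1288 CPM in Keap1-wildtype BAP tumour 2 against 39.1 to 366 CPM in the other 5 of its group. It was 458 CPM in Keap1-wildtype untreated tumour 5 against 37.0 to 189 CPM in the rest of that group. In Keap1-deleted untreated tumours 1 to 5 it was 1265, 267, 258, 188 and 776 CPM, and tumours 1 and 5 also had the highest *Scd1*. The part of sebaceous tissue in the *Scd1* levels was not tested.

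**Figure D2:**
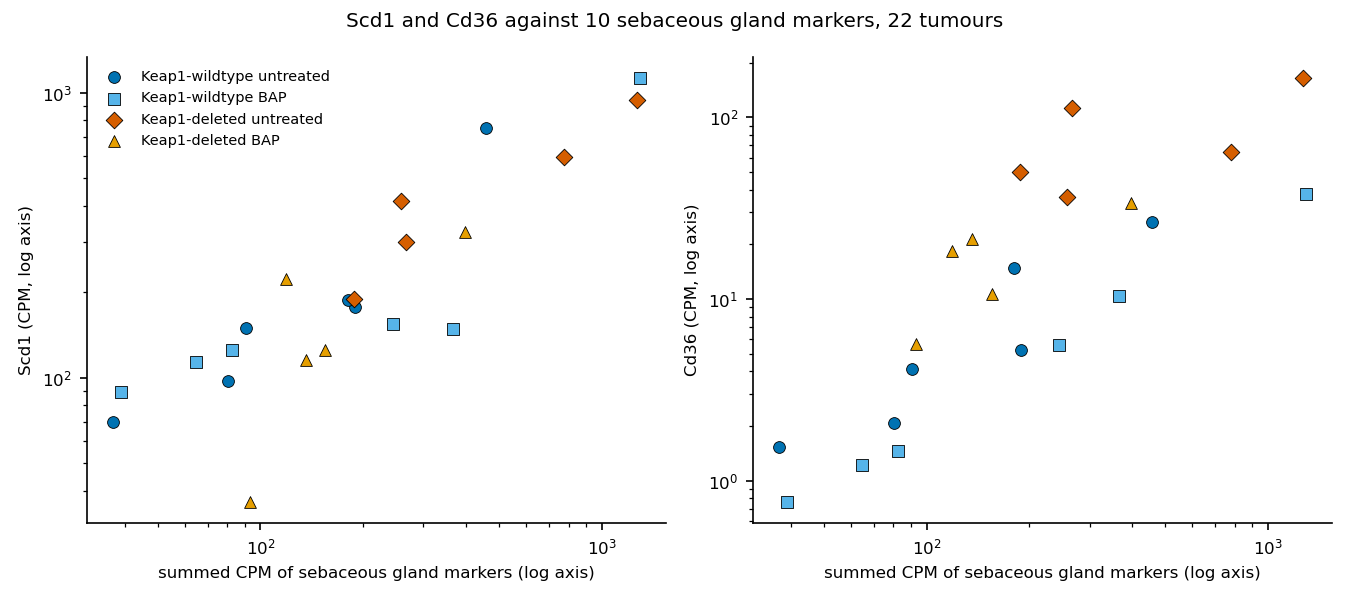
Scd1 (left) and Cd36 (right) in CPM against the summed CPM of 10 sebaceous gland markers in each of 22 tumours, all axes logarithmic, symbols by group. The Scd1 maximum of 1124 CPM sits at the marker maximum of 1288 CPM, and Keap1-deleted untreated tumours lie above the wild-type tumours in Cd36 at like marker levels.

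*Fabp4*, the fatty acid carrier known from adipocytes, fell furthest of the 10 genes. Keap1-wildtype untreated tumours 1 to 6 had 3649, 33.9, 4256, 3463, 2182 and 10.3 CPM. Keap1-wildtype BAP tumours 1 to 6 had 4970, 153, 4453, 873, 2291 and 5796 CPM. Both wild-type groups thus held tumours with 2182 CPM or more beside others that were far lower. The Keap1-deleted untreated tumours held 63.3, 114, 36.4, 41.3 and 108 CPM, and Keap1-deleted BAP tumours 34.2, 2.75, 21.2, 3.89 and 108 CPM. No Keap1-deleted tumour exceeded 114 CPM. In BAP tumours *Fabp4* fell 90.9-fold with the deletion (log2 -6.51, SE 1.42, adjusted p = 0.00164), with no overlap. Without Keap1-deleted BAP tumour 5, the highest of its group, the log2 fold change was -7.64. In untreated tumours the log2 difference was -4.97 (SE 1.32, adjusted p = 0.089), short of the threshold, and the groups overlapped through wild-type tumours 2 and 6. Without Keap1-wildtype untreated tumour 6 it was -5.23 with an adjusted p of 0.0087, and DESeq2 with all tumours gave -4.94 with an adjusted p of 0.000196.

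Adipocyte markers were set beside *Fabp4*. *Adipoq*, the adipocyte hormone, was at 0 in all 6 Keap1-wildtype untreated tumours, where *Fabp4* reached 4256 CPM, and *Plin1*, the coat protein of adipocyte lipid droplets, was at 0 in all 6 Keap1-wildtype BAP tumours, where *Fabp4* reached 5796 CPM. Their highest values, 3.62 CPM for *Adipoq* and 2.65 CPM for *Plin1*, were both in Keap1-deleted untreated tumour 2. Summed over 12 adipocyte markers, the level was 64.6 to 365 CPM in Keap1-wildtype untreated, 212 to 329 in Keap1-wildtype BAP, 85.6 to 347 in Keap1-deleted untreated and 58.5 to 157 CPM in Keap1-deleted BAP tumours. Most of that sum was *Cebpa*, which keratinocytes also make, with a mean of 189 CPM in Keap1-wildtype untreated tumours. *Pecam1*, a marker of blood endothelium, which can also make *Fabp4*, was 19.3 to 88.4 CPM in Keap1-wildtype untreated and 79.3 to 165 CPM in Keap1-deleted untreated tumours. Summed over 10 endothelial markers the level was 113 to 403 CPM and 301 to 617 CPM in these groups, and 93.3 to 342 CPM and 150 to 408 CPM in wild-type and deleted BAP tumours. In BAP tumours the summed adipocyte markers were lower in the deleted group without overlap, as *Fabp4* was, but the markers did not fall together. Of the 10 tested, 2 were called higher and 3 lower with the deletion, with a median log2 fold change of 0.39. Over all genes 20.3% rose and 20.0% fell in that comparison. The part of these cell types in the *Fabp4* levels was not tested. The 3 genes most like *Fabp4* were *Neu3* (r = 0.94), *Stfa3* and *Ctnnd1* (each 0.92).

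*Fabp5*, the epidermal carrier, fell with the deletion in BAP tumours and with BAP in Keap1-deleted tumours. Keap1-wildtype untreated tumours 1 to 6 had 10256, 5700, 9590, 14156, 5258 and 229 CPM and Keap1-wildtype BAP tumours 12765, 3883, 10087, 12462, 12208 and 15302 CPM. Levels in Keap1-deleted untreated tumours were 4926, 2542, 280, 978 and 5422 CPM. Keap1-deleted BAP tumours had 248, 318, 189, 105 and 614 CPM, all below the Keap1-wildtype BAP tumours. With the deletion *Fabp5* fell 37.7-fold in BAP tumours (log2 -5.24, SE 0.87, adjusted p = 0.00037). In untreated tumours the log2 difference was -1.41 (95% interval -2.84 to 0.02, adjusted p = 0.316). The interaction was -3.82 (SE 1.03, adjusted p = 0.0359). *Fabp5* was also the single gene of the 10 called for BAP in Keap1-deleted tumours, where it fell 9.60-fold (log2 -3.26, SE 0.80, adjusted p = 0.025), although these groups overlapped. With single tumours left out, this fall ran from -3.72 to -2.85 and missed the threshold without Keap1-deleted untreated tumour 1 or 5 or Keap1-deleted BAP tumour 1 or 4 (highest adjusted p 0.0744). The interaction ran from -4.28 to -3.43 and missed it in 10 of 22 fits (highest adjusted p 0.081), while the fall with the deletion in BAP tumours passed in all 22.

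The levels of both carriers were set beside the keratinocyte markers. *Fabp5* was 105 to 614 CPM in the 5 Keap1-deleted BAP tumours, whose basal keratinocyte markers summed to 322 to 1832 CPM, and 229 CPM in Keap1-wildtype untreated tumour 6, where they summed to 1546 CPM. In Keap1-deleted untreated tumours 1 and 5 the markers summed to 24462 and 28329 CPM, near the 22729 and 27062 CPM of Keap1-wildtype untreated tumour 5 and Keap1-wildtype BAP tumour 2. *Fabp5* in these 4 tumours was 4926, 5422, 5258 and 3883 CPM, and *Fabp4* was 63.3, 108, 2182 and 153 CPM. Keap1-wildtype untreated tumour 2, with a marker sum of 18959 CPM, had 5700 CPM of *Fabp5* and 33.9 CPM of *Fabp4*. With the mean log2 level of the basal keratinocyte markers as a covariate, no gene of the 19202 passed the threshold for the deletion in BAP tumours, and the log2 differences were -0.72 for *Fabp5* (SE 0.93) and -1.47 for *Fabp4* (SE 1.95). That covariate left *Srebf1*, *Fasn*, *Acaca* and *Scd2* at -0.26, -0.49, -0.23 and -0.44. In untreated tumours the same covariate gave -3.46 for *Fabp4* (SE 1.15, adjusted p = 0.152) and -0.75 for *Fabp5* (SE 0.46, adjusted p = 0.426). The part of keratinocyte content in these differences was not tested further, and in BAP tumours it cannot be told apart from the genotype, since the marker sums of those groups do not overlap. The 3 genes most like *Fabp5* were *Aknad1*, *Ppp1r13l* and *Gcat*, each at r = 0.98.

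**Figure D3:**
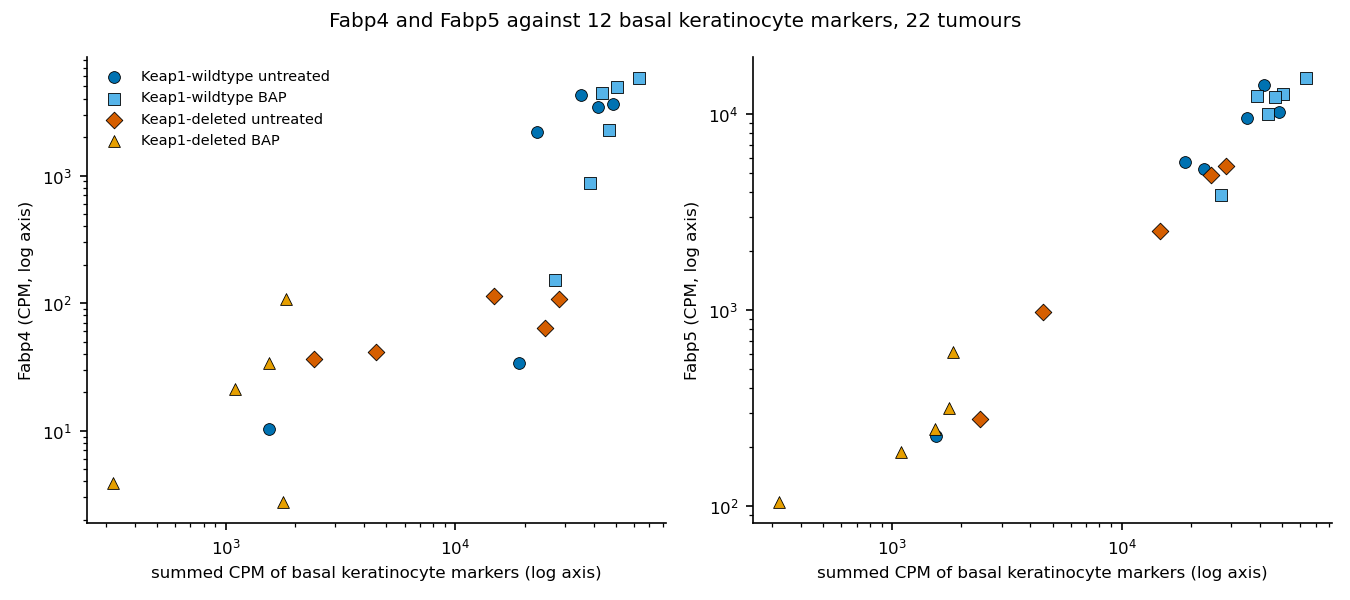
Fabp4 (left) and Fabp5 (right) in CPM against the summed CPM of 12 basal keratinocyte markers in each of 22 tumours, all axes logarithmic, symbols by group. Fabp5 rises along the markers through all groups, from 105 to 15302 CPM. Fabp4 stays at or below 114 CPM in every Keap1-deleted tumour, including those with marker sums of 24462 and 28329 CPM. It was also low in Keap1-wildtype untreated tumour 2 (33.9 CPM, marker sum 18959 CPM) and Keap1-wildtype BAP tumour 2 (153 CPM, marker sum 27062 CPM).

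*Cd36*, the uptake receptor, was higher in Keap1-deleted than in Keap1-wildtype untreated tumours, without passing the edgeR threshold. Keap1-wildtype untreated tumours had 5.23, 14.9, 1.54, 2.08, 26.5 and 4.12 CPM and Keap1-wildtype BAP tumours 10.4, 37.9, 5.60, 1.22, 0.763 and 1.45 CPM. Keap1-deleted untreated tumours had 164, 112, 36.2, 50.1 and 64.1 CPM, each above every Keap1-wildtype untreated tumour. Keap1-deleted BAP tumours had 18.3, 10.7, 33.6, 5.66 and 21.4 CPM. The log2 difference in untreated tumours was 3.23 (SE 0.91, adjusted p = 0.101). DESeq2 gave 3.25 with an adjusted p of 0.00599, and edgeR without Keap1-wildtype untreated tumour 6 gave 3.08 with an adjusted p of 0.0395. In BAP tumours the log2 difference was 0.90 (95% interval -0.78 to 2.59, adjusted p = 0.42), and without Keap1-wildtype BAP tumour 2, the highest of its group, it was 2.20 (adjusted p = 0.0363). The 3 genes most like *Cd36* were *Ddhd1* (r = 0.92), *Fbxo32* (0.89) and *Pparg* (0.88), the last a nuclear receptor of fat and sebaceous cells. *Pparg* was 3.82 to 15.5 CPM in Keap1-deleted untreated and 0 to 7.43 CPM in Keap1-wildtype untreated tumours. The adipocyte score, the mean log2 level of the adipocyte markers, was 1.42 ± 1.01 (SD, n = 5) in Keap1-deleted untreated tumours. It was -0.34 ± 0.92 (SD, n = 6) in Keap1-wildtype untreated tumours. The summed endothelial markers differed as given above. In edgeR 0 of 10 tested genes of either list passed the threshold. Of the endothelial markers 10 of 10 were fitted above 0, and DESeq2 called 3 and limma-voom 9 higher. Of the adipocyte markers 8 were fitted above 0 and 2 below, and DESeq2 called 1 and limma-voom 3 higher. Over all genes DESeq2 called 5.35% and limma-voom 17.9%. With the adipocyte score, which includes *Pparg*, as a covariate the log2 difference of *Cd36* was 1.30 (adjusted p = 0.48). Summed skeletal muscle markers had a median of 448 CPM in Keap1-deleted and 120 CPM in Keap1-wildtype untreated tumours. Summed macrophage markers had medians of 1113 and 207 CPM in these groups, and the groups overlapped for both lists. The part of these cell types in the *Cd36* levels was not tested further.

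Counted by comparison, the 10 genes stood as follows. For the deletion in untreated tumours none of the 10 passed the threshold in edgeR, 3 had an unadjusted p under 0.05 and DESeq2 and limma-voom each called 2, *Fabp4* lower and *Cd36* higher. Over all genes edgeR called 0.214% higher and 0.0781% lower, 17.6% had an unadjusted p under 0.05, DESeq2 called 5.35% of the genes to which it gave an adjusted p and limma-voom 17.9%, so that 2 of 10 by limma-voom is close to the share of all genes. *Cd36* was the 1 gene of 10 whose groups did not overlap, against 1.23% of all genes higher without overlap and 0.708% lower. For the deletion in BAP tumours 6 of 10 fell and 0 rose in edgeR, where 20.3% of all genes rose and 20.0% fell. Groups did not overlap for 4 of them, *Srebf1*, *Acaca*, *Fabp4* and *Fabp5*, all lower, against 13.7% of all genes lower and 13.8% higher. The median log2 fold change of the 10 was -0.80, beside 0.00 over all genes. With library totals as the only scaling, which moves the median of all genes to 0.44, *Fabp4* (log2 -6.08) and *Fabp5* (-4.80) were the 2 of 10 still called, and *Srebf1*, *Fasn*, *Acaca* and *Scd2* were at -0.38, -0.43, -0.43 and -0.34.

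For BAP in Keap1-wildtype tumours none of the 10 genes passed, and 0% of all genes did, in edgeR; 1 of the 10 (*Fasn*, log2 0.58) and 13.7% of all genes had an unadjusted p under 0.05, and DESeq2 called 0 of the 10 and 4.66% of all genes. All 10 fitted values were above 0, from 0.08 (*Cd36*) to 0.58. For BAP in Keap1-deleted tumours 1 of the 10 passed, *Fabp5* lower, where 5.16% of all genes fell and 0.943% rose. All 10 fitted values were below 0, with *Acaca* at -0.75 (adjusted p = 0.0505) and *Scd2* at -0.84 (adjusted p = 0.0955). *Cd36*, at -2.25 (SE 0.94, adjusted p = 0.169), was the 1 gene without overlap, against 3.54% of all genes lower and 2.40% higher. The interaction passed for 3 of 10, *Acaca*, *Scd2* and *Fabp5*, all more negative in the BAP arm, where 4.47% of all genes were called in that direction and 2.47% in the other. The comparisons share tumours and are not independent.

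**Figure D4:**
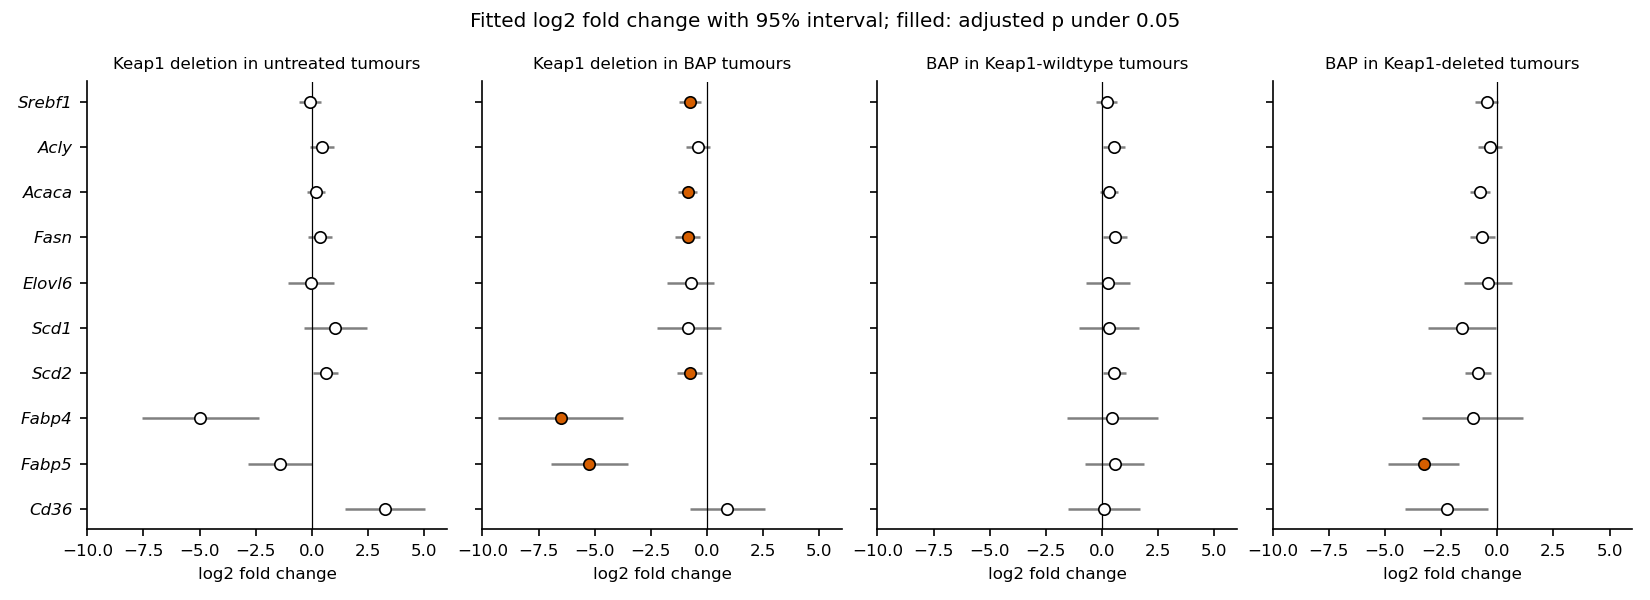
Fitted log2 fold changes of the 10 genes with 95% intervals in 4 comparisons; filled points passed an adjusted p of 0.05. 6 points are filled for the deletion in BAP tumours and 1, Fabp5, for BAP in Keap1-deleted tumours.

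The other genes of the pathway were read from 5 lists. Over all genes 20.3% rose and 20.0% fell with the deletion in BAP tumours, the shares beside the counts here and in the next paragraph. Nothing particular to the lists is read from the counts of genes that rose. In Keap1-deleted against Keap1-wildtype BAP tumours, 5 of 24 tested genes of fatty acid synthesis, elongation and desaturation rose and 9 fell, with a median log2 fold change of -0.41. The mitochondrial citrate carrier *Slc25a1* (log2 -1.81, SE 0.33), the elongase *Elovl1* (-2.23, SE 0.43) and *Mid1ip1*, which activates acetyl-CoA carboxylase (-1.90, SE 0.40), fell. The polyunsaturated fatty acid desaturase *Fads1* (2.42, SE 0.60) and the dehydratases *Hacd4* (2.96, SE 0.76) and *Hacd1* (1.55, SE 0.49) rose. Of 15 regulators of SREBP and ChREBP 8 fell and 1 rose: *Srebf2*, the sterol counterpart of *Srebf1* (-1.49, SE 0.25), the SREBP escort *Scap* (-1.59, SE 0.28) and the receptor *Rxra* (-1.90, SE 0.33) fell, and the liver X receptor *Nr1h3* (1.54, SE 0.49) rose.

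Of 17 tested genes of fatty acid activation, uptake and other binding proteins 6 fell and 3 rose. The acyl-CoA synthetase *Acsl1* (-2.75, SE 0.41), the acyl-CoA binding protein *Dbi* (-1.98, SE 0.39) and the transporter *Slc27a4* (-1.92, SE 0.43) fell, and the muscle carrier *Fabp3* (5.82, SE 1.42), *Acsl4* (1.96, SE 0.55) and *Acsl6* (5.50, SE 1.48) rose. Single tumours moved these 3 values: without Keap1-wildtype BAP tumour 2 *Fabp3* was at 8.29 and *Acsl4* at 2.56, without Keap1-deleted BAP tumour 3 *Fabp3* was at 4.72 and *Acsl6* at 4.49, and without Keap1-wildtype BAP tumour 3 *Acsl6* was at 6.28. Skeletal muscle markers moved the same way as *Fabp3*: 9 of 11 tested rose, and the sum of 12 was 16.2 to 1210 CPM in Keap1-deleted BAP and 6.22 to 81.0 CPM in Keap1-wildtype BAP tumours. Of 18 genes of triglyceride synthesis and lipid droplets 6 fell and 2 rose, among them *Dgat2*, which makes triglycerides (-3.74, SE 0.70), and *Bscl2* (-1.57, SE 0.31). Of 22 tested genes of fatty acid oxidation 10 fell and 3 rose, with *Cpt2* (-1.54, SE 0.26) and *Hadha* (-1.12, SE 0.24) lower and *Cpt1c* (3.55, SE 0.63) and *Eci1* (2.04, SE 0.44) higher. In these tumours 11 of 12 basal and 14 of 14 differentiated keratinocyte markers fell, and 10 of 10 fibroblast and 10 of 10 macrophage markers rose. Summed differentiated keratinocyte markers were 16.3 to 3312 CPM in Keap1-deleted BAP and 29421 to 109014 CPM in Keap1-wildtype BAP tumours; fibroblast markers were 12737 to 42839 and 1023 to 2396 CPM and macrophage markers 1774 to 3837 and 89.8 to 216 CPM. Their part in the lipid genes was not tested.

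**Figure D5:**
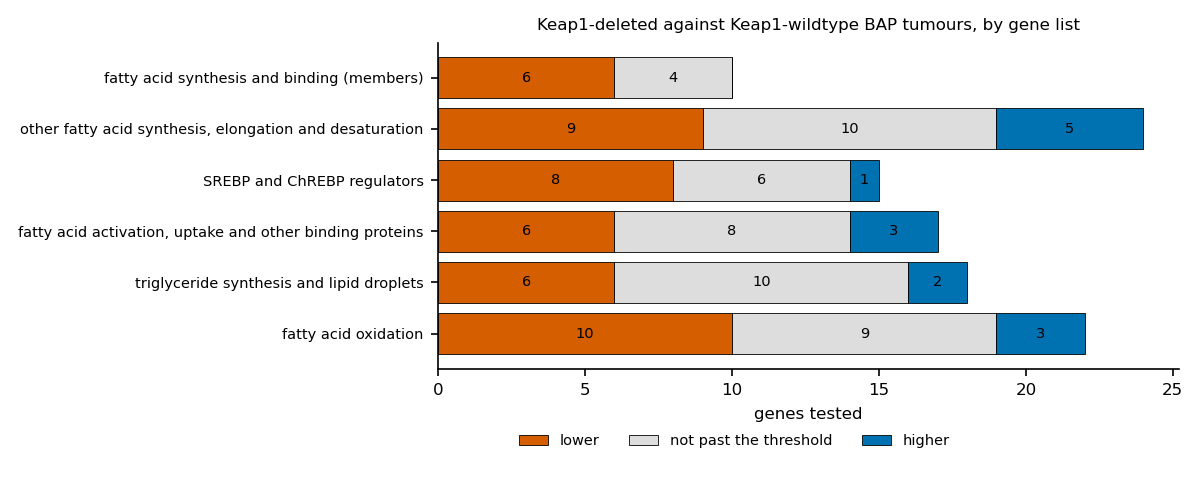
Number of tested genes of each of 6 lists that fell, rose or did not pass an adjusted p of 0.05 in Keap1-deleted against Keap1-wildtype BAP tumours. In each list more genes fell than rose, from 6 against 0 for the 10 genes described here to 9 against 5 for the other synthesis genes. Over all genes 20.3% rose and 20.0% fell.

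In the other comparisons fewer list genes passed. For the deletion in untreated tumours and for BAP in Keap1-wildtype tumours, 0 genes of the 5 other lists were called by edgeR. In untreated tumours 3 of the 24 other synthesis genes, 2 of 15 regulators, 5 of 17 uptake genes, 4 of 18 triglyceride genes and 4 of 22 oxidation genes had an unadjusted p under 0.05. DESeq2 called 1 regulator and 2 uptake genes there, and limma-voom called 3, 2, 3, 5 and 3 genes of the lists in that order. Over all genes the shares were 17.6% at an unadjusted p under 0.05, 5.35% with DESeq2 and 17.9% with limma-voom, and nothing particular to the lists is read from these counts. For BAP in Keap1-wildtype tumours the unadjusted counts were 2, 2, 2, 0 and 2, where 13.7% of all genes were under 0.05; DESeq2 called 1 oxidation gene and limma-voom 0. For BAP in Keap1-deleted tumours, where 5.16% of all genes fell and 0.943% rose, 6, 2, 3, 3 and 4 genes of the lists fell and 0 rose. Lipoprotein lipase *Lpl*, which frees fatty acids for uptake, was among them at -2.79 (SE 0.71), with group means of 173 CPM in Keap1-deleted untreated and 25.0 CPM in Keap1-deleted BAP tumours. *Dgat2* was at -3.07 (SE 0.69), *Mid1ip1* at -1.97 (SE 0.42) and *Acss2*, which makes acetyl-CoA from acetate, at -2.16 (SE 0.48). With single tumours left out, *Lpl* missed the threshold in 7 of 22 fits, *Dgat2* in 4, *Acss2* in 3 and *Mid1ip1* in 1 (highest adjusted p 0.0777, for *Lpl* without Keap1-deleted untreated tumour 1). The interaction was called lower for 4, 3, 3, 2 and 5 genes, *Mid1ip1* (-2.60, SE 0.55), *Srebf2* (-1.44, SE 0.35) and *Dgat2* (-3.86, SE 0.90) among them, and higher for *Cpt1c* (2.94, SE 0.84). Over all genes it was called lower for 4.47% and higher for 2.47%. The *Cpt1c* interaction missed the threshold in 16 of 22 fits with a tumour left out and ran from 2.34, without Keap1-wildtype untreated tumour 6, to 3.43 (highest adjusted p 0.0929). Those of *Mid1ip1* and *Dgat2* missed it in 4 fits each and that of *Srebf2* in 5 (highest adjusted p 0.07).

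For *Srebf1* and the enzymes of synthesis other than *Scd1*, the genes most like them over the 22 tumours were outside the 5 lists. They were *Smarca4*, *Slc35a4* and *Rtkn* for *Fasn* (r = 0.92, 0.90 and 0.86), *Hgs*, *Slc39a9* and *Lrrc47* for *Acaca* (0.92, 0.91 and 0.90) and *Gtpbp1*, *Kpnb1* and *Tnfaip1* for *Acly* (0.88, 0.88 and 0.87). For *Elovl6* they were *Mcmbp*, *Eif4g2* and *Smpdl3b* (0.86, 0.83 and 0.83), for *Scd2* *Tubb3*, *Map7d1* and *Pls3* (0.87, 0.82 and 0.81) and for *Srebf1* *Mdh1*, *Coq8b* and *Cpne8* (0.86, 0.85 and 0.85). The r is Pearson's over log2 CPM, a description over tumours that share groups and cell makeup.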

How the data were processed

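RNA-seq of 22 mouse tumours was read from the deposited tables, 1 per tumour, each with 56748 Ensembl gene IDs. The deposited expected counts, an RSEM output going by the file names, are whole numbers in every file within 1e-09, so rounding changed nothing; the deposited effective length (another column) is the same whole number per gene in every file. No aligner, genome build or annotation is named in the labels or file headers. Symbols and positions come from GENCODE M21 (GRCm38), which names 52073 of the IDs, holding 99.39% of counts. Counts were tested with edgeR 4.0.16 in R 4.3.3 (quasi-likelihood, robust, TMM scaling, filterByExpr with a minimum count of 10, Benjamini-Hochberg over 19202 genes, calls at adjusted p under 0.05), in 1 fit of all 22 tumours with a term per group and 5 contrasts. DESeq2 1.42.0, limma-voom 3.58.1, other scalings, filters, covariates and left-out tumours were alternatives. The covariate and marker scores are mean log2 CPM with a prior count of 2. Intervals are 1.96 SE either side. TPM was computed from count and deposited length. Total counts per tumour of 29235010 to 39862777 leave counting error small for the 10 genes, whose lowest count was 20; spread between tumours sets the precision.

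The 10 genes, the lists and the tests were chosen with earlier results of these data known. Named genes are the 10 in every comparison, up to 3 called genes per direction and list by smallest p, of which some are shown, and the 3 genes of highest Pearson r with each of the 10. That ranking left out the others of the 10, genes without a symbol, predicted genes (Gm or Rik names) and pseudogenes. Simulated counts for the deletion in BAP tumours over 19202 genes were also tested. There edgeR called 43 of 100 genes changed by a log2 of 1.5, 80 of 100 changed by 3, and 6 of 18506 unchanged genes. Only these genes were changed, drawn from those above a floor of expression, whereas 7746 genes were called in the real comparison. The shares recovered therefore do not carry over to it. No 2 tumours of a group agreed within sampling noise. Replicates were numbered in accession order and pair nothing. Of the titles 8 end in R, whose meaning the labels do not give; it was used as a covariate and as a split among the alternatives.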

Additional observations from a re-analysis of the deposited data

Results flagged for a closer look

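In 40 groups of libraries (10 genes in 4 groups), 6 held a tumour far from the others of its group; the threshold used flags about 1 in 20 groups of normally distributed values, and these CPM levels were not shown to be normal. In 3 of the 6 it was the same tumour, Keap1-wildtype BAP 2, which was the highest of its group for *Srebf1* (351 CPM), *Scd1* (1124 CPM) and *Cd36* (37.9 CPM). It also had the highest summed sebaceous markers of its group, 1288 CPM, and the lowest *Fabp4* (153 CPM) and *Fabp5* (3883 CPM). The others were *Scd1* in Keap1-wildtype untreated tumour 5 (749 CPM), *Scd2* in Keap1-wildtype untreated tumour 1 (717 CPM) and *Elovl6* in Keap1-deleted BAP tumour 3 (127 CPM).

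The effect of the *Keap1* deletion differed between BAP and untreated tumours by the interaction test for *Acaca* (-1.05 on the log2 scale), *Scd2* (-1.39) and *Fabp5* (-3.82), each more negative with BAP; each call was lost in some of the fits that left out a single tumour, in 15, 14 and 10 of 22.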

How the results depend on the processing

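Over the alternatives, 1532 of 1690 values of the 10 genes kept direction and side of the threshold, 84 fell short of it, 34 newly passed and 40 changed sign; none of those 40 was past the threshold with the new sign. Counts of calls depended strongly on the method, and the cause was not tested except where tumours were removed.

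For the deletion in untreated tumours, where 56 genes and 0 of the 10 were called, the numbers for all genes and for the 10 were 944 and 2 with DESeq2, 3431 and 2 with limma-voom, and 2530 and 2 without Keap1-wildtype untreated 6 and Keap1-deleted BAP 2. All genes called numbered 36 with no low-count filter, 0 with only the groups compared, 28 with the title suffix as a covariate, 0 with only titles not ending in R, 124 with the basal keratinocyte covariate and 0 with the adipocyte covariate. Leaving out single tumours gave 16 to 2731 genes and 0 to 2 of the 10, the upper ends without Keap1-wildtype untreated 6.

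For the deletion in BAP tumours, with 7746 genes and 6 of the 10, library totals left 2 of the 10, and the basal keratinocyte covariate left 0 genes and 0 of the 10; leaving out single tumours gave 6768 to 8199 genes and 3 to 6 of the 10, the lowest without Keap1-deleted BAP 4. For BAP in Keap1-wildtype tumours, with 0 genes, there were 892 with DESeq2, 37 with the title suffix and 474 with only titles not ending in R.

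For BAP in Keap1-deleted tumours, with 1172 genes and 1 of the 10, all genes called numbered 2112 with DESeq2, 3791 with limma-voom, 398 with no filter, 352 with only the groups compared, 11 with only titles not ending in R, 1 with the basal keratinocyte and 1 with the adipocyte covariate. Of the 10, DESeq2 size factors, DESeq2, at least 1 CPM in 5 libraries and the title suffix each gave 2, limma-voom and leaving out the 2 tumours together 3, and no filter, only the groups compared, only titles not ending in R and either covariate 0. Leaving out single tumours gave 181 to 1722 genes and 0 to 2 of the 10, the lowest without Keap1-deleted untreated 1.

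For the interaction, with 1333 genes and 3 of the 10, all genes called numbered 3008 with DESeq2, 111 with no filter, 3021 with the title suffix, 680 with only titles not ending in R, 0 with the basal keratinocyte and 1 with the adipocyte covariate. Of the 10 there were 1 with library totals, 0 with no filter, 1 with only titles not ending in R and 0 with either covariate. Leaving out single tumours gave 1 to 2276 genes and 0 to 4 of the 10; without Keap1-deleted untreated 1 a single gene was left.

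Signs changed as follows, in log2. For the deletion in untreated tumours *Srebf1* was 0.01 with library totals and 0.12 with only titles not ending in R, *Acaca* -0.11 with limma-voom, *Scd1* -0.16 with the adipocyte covariate, and *Elovl6* 0.27 with the title suffix, 0.08 with only titles not ending in R and 0.16 with the basal keratinocyte covariate. In BAP tumours *Acly* was 0.05 with library totals, and with the basal keratinocyte covariate *Acly* and *Scd1* were 0.08 and *Elovl6* 1.66, *Fads1* 0.00, *Hacd4* and *Acsl4* -0.14, *Hacd1* -0.26, *Acss2* 0.69, *Agpat1* -0.20 and *Gpat4* -0.19. For BAP in Keap1-wildtype tumours *Cd36* was -0.09 with library totals, -0.75 with limma-voom, -0.12 with the basal keratinocyte and -0.15 with the adipocyte covariate and -0.07 without the 2 tumours together. There *Srebf1* was -0.06 and *Scd1* -0.24 with limma-voom, and *Elovl6* -0.18 and *Fabp4* -0.23 with the basal keratinocyte covariate. In Keap1-deleted tumours that covariate gave *Elovl6* 1.33, *Fabp4* 1.76 and *Fabp5* 0.08, the adipocyte covariate *Elovl6* 0.03; in the interaction they gave *Elovl6* 1.51, *Fabp4* 1.99 and *Fabp5* 0.03, and *Cd36* 0.01. Leaving out single tumours moved *Elovl6* between -0.40 and 0.31 for the deletion in untreated tumours and *Scd1* between -1.23 and 0.39 for it in BAP tumours; for BAP in Keap1-wildtype tumours *Srebf1* ran from -0.14 to 0.28, *Scd1* from -0.92 to 1.10 and *Cd36* from -1.22 to 0.78, each lowest without Keap1-wildtype BAP 2. No paired analysis was made because the labels give no pairing between tumours.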

Other observations

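Within the wild-type groups 3 tumours had *Fabp4* far below the rest, Keap1-wildtype untreated 2 (33.9 CPM) and 6 (10.3 CPM) and Keap1-wildtype BAP 2 (153 CPM). In that order their basal keratinocyte markers summed to 18959, 1546 and 27062 CPM and their *Fabp5* was 5700, 229 and 3883 CPM. Their differentiated keratinocyte markers summed to 4475, 411 and 29421 CPM, below the other tumours of their groups, at 30179 to 119639 CPM untreated and 50235 to 109014 CPM with BAP. Across groups, Keap1-wildtype untreated 4 and 5 had 30179 and 31286 CPM of these markers, near Keap1-wildtype BAP 2, with 3463 and 2182 CPM of *Fabp4*. Keap1-deleted untreated 1 and 5 had 27542 and 38647 CPM of the markers, with 63.3 and 108 CPM of *Fabp4*. The part of keratinocyte content in these *Fabp4* levels was not tested. Per length, *Fabp5* exceeded *Fabp4* in every one of the 22 tumours, by a median log2 ratio of 2.09 in Keap1-wildtype untreated, 2.24 in Keap1-wildtype BAP, 4.90 in Keap1-deleted untreated and 3.49 in Keap1-deleted BAP tumours. Keap1-wildtype untreated 2 and Keap1-wildtype BAP 2 had the highest *Pparg* of their groups, 7.43 and 13.1 CPM. Keap1-wildtype untreated 6, the lowest of the 3 in *Fabp4*, had 1.4 CPM of *Pparg*, beside a group median of 1.37 CPM. These tumours were picked out after their values were seen and were not tested.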
